A study of Mus musculus with 34 samples.

Results

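Interferon response genes are the genes that cells switch on when an interferon receptor fires. The set described here holds 35 of them, given as a list of symbols, and 35 of 35 were present in both count tables of 53655 genes. Their levels are given in 34 RNA-seq libraries of mouse cells, 17 from epiblast stem cells (EpiSC), which are pluripotent and primed to differentiate, and 17 from definitive endoderm (DE), the precursor of gut, liver and pancreas. The lines are of the inbred strains C57BL/6J, PWK/PhJ, NOD/ShiLtJ, NZO/HiLtJ, WSB/EiJ, CAST/EiJ and DBA/2J, with no transgene named, and 1 library within a cell type is 1 cell line. C57BL/6J was represented by 5 lines in each cell type, and NOD/ShiLtJ, WSB/EiJ and NZO/HiLtJ by 2 lines in each. DBA/2J had 1 line in each. PWK/PhJ had 3 lines in EpiSC and 4 in DE, and CAST/EiJ had 2 in EpiSC and 1 in DE. In 16 lines both cell types were sequenced.

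EpiSC grew on irradiated mouse embryonic fibroblasts, called feeders, with FGF, activin at 20 ng/mL and an inhibitor of tankyrase. For DE the cells were plated on laminin without feeders being named, given 16 h of the GSK3 inhibitor CHIR at 3 uM with activin at 40 ng/mL, and then 24 h of LDN-193189, which blocks BMP receptors, at 100 nM beside activin at 100 ng/mL. Cells bearing CXCR4 were then taken with magnetic beads. A kit that selects polyA RNA and keeps its strand was used for EpiSC, and one for low input that amplifies cDNA over 12 cycles for DE. RNA integrity numbers were 9.5 to 10 for EpiSC and 7.7 to 10 for DE, so kit, RNA integrity and cell type cannot be told apart. An EpiSC library held 25.6 to 33.8 M (mega) counts and a DE library 23.8 to 67.7 M. The defining endoderm markers were higher in DE for 6 of 6 genes tested, and EpiSC markers were lower in DE for 4 of 6 (Pou5f1, Nanog, Sox2 and Foxd3). The other 2, Fgf5 and Otx2, were higher, and the summed EpiSC list rose from a median of 1218 to 2152 CPM. In bulk RNA, fewer cells of a type and less RNA per cell cannot be told apart.

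Type I interferons act through Ifnar1 and Ifnar2 and the kinases bound to them, which activate a complex with Stat2 and Irf9 that binds a DNA element called the ISRE. Type II interferon acts at another element, GAS. The genes switched on include RNA sensors, enzymes that stop viral RNA from being copied or translated, and membrane proteins that trap or exclude virions. Pluripotent stem cells are known for a weak response to interferon, whereas fibroblasts respond strongly.

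The elements named above could be read in the promoters of many members. RefSeq promoter windows (build GRCm38.p6, from 250 bases before to 50 bases after a start site) were given for 27 of the 35 members. Usp18, Dhx58, Parp14, Zbp1, Mx1, Mx2, Rtp4 and Ifi27 had no entry. The core of the ISRE, read as GAAA, any 2 bases and GAAA again and searched on both strands with overlapping matches kept, stood in at least 1 window of 15 of the 27 members (55.6%), against 3.99% of all 27025 genes in the table. The GAS letters TTCNNNGAA, which can overlap an ISRE match, stood in 8 of 27 members (29.6%), against 9.55% of all genes. Below are the 120 bases before the start site for 6 members that hold a match of the ISRE core in those bases. Most of the 27 members hold none there, Ifit3, Irf1 and Trim25 among them. Capitals mark the ISRE core, which reads as TTTC, any 2 bases and TTTC where it lies on the other strand. Adjoining matches share bases and form 1 run.

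Isg15 (chr4:156200819-156200938, minus strand): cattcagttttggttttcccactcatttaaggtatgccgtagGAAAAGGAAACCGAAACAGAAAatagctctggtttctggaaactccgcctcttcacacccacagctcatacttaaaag
Ifit1 (chr19:34640769-34640888, plus strand): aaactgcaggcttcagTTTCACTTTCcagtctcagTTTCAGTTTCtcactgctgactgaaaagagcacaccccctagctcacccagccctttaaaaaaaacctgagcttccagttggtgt
Oas1a (chr5:120907526-120907645, minus strand): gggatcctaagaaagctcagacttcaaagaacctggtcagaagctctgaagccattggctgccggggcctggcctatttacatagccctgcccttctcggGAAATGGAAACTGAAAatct
Rsad2 (chr12:26456453-26456572, minus strand): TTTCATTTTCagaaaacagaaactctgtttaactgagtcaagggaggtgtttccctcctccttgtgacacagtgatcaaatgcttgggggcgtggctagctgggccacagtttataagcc
Gbp7 (chr3:142530216-142530335, plus strand): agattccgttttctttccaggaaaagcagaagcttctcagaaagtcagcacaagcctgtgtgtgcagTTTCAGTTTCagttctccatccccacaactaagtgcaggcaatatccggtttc
Ifitm2 (chr7:140955962-140956081, minus strand): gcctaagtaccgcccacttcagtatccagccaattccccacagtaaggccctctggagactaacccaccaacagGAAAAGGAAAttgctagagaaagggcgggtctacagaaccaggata

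Isg15 held 3 overlapping matches, Ifit1 and Oas1a 2 each, and Rsad2, Gbp7 and Ifitm2 1 each. Trim25, Irf1, Irf7, Irf9, Oasl2, Xaf1, Ifit2, Ifitm1, Ifi44, Ifi35, Cmpk2 and Lgals3bp held no match in their windows. A match describes the letters only.

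Levels are given as log2 CPM, the log2 of each gene's count scaled by library size (TMM) with a prior count of 2, on which a library with 0 counts reads -4.01. In DE a count of 0 allows a level of up to 0.0443 to 0.126 CPM, depending on depth, taking 3 counts as the limit and counting error only. The median member stood at 1.57 in the lowest EpiSC library, 3.50 in the middle one and 5.12 in the highest. In DE the same 3 values were -1.64, -0.44 and 3.48. No member had 0 counts in any EpiSC library, whereas in DE between 0 and 14 members did (median 8).

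Feeder RNA was followed through the collagen level of a library, the log2 of the summed CPM of Col1a1, Col1a2 and Col3a1, which fibroblasts make in bulk. It ran from 5.04 in C57BL/6J line 1 to 11.3 in NOD/ShiLtJ AC595 in EpiSC (median 9.96), and from 4.92 in C57BL/6J line 1 to 10.1 in NOD/ShiLtJ AC576 in DE (median 7.31). Of the EpiSC libraries, C57BL/6J line 1 stood apart at the low end, followed by C57BL/6J line 4 at 8.17. Both NOD/ShiLtJ libraries stood at the high end in DE. A list of 15 fibroblast markers summed to between 135.6 and 3713 CPM in EpiSC and to between 110.9 and 1018 CPM in DE, with 0 of 15 genes absent from all libraries of either cell type.

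**Figure D1:**
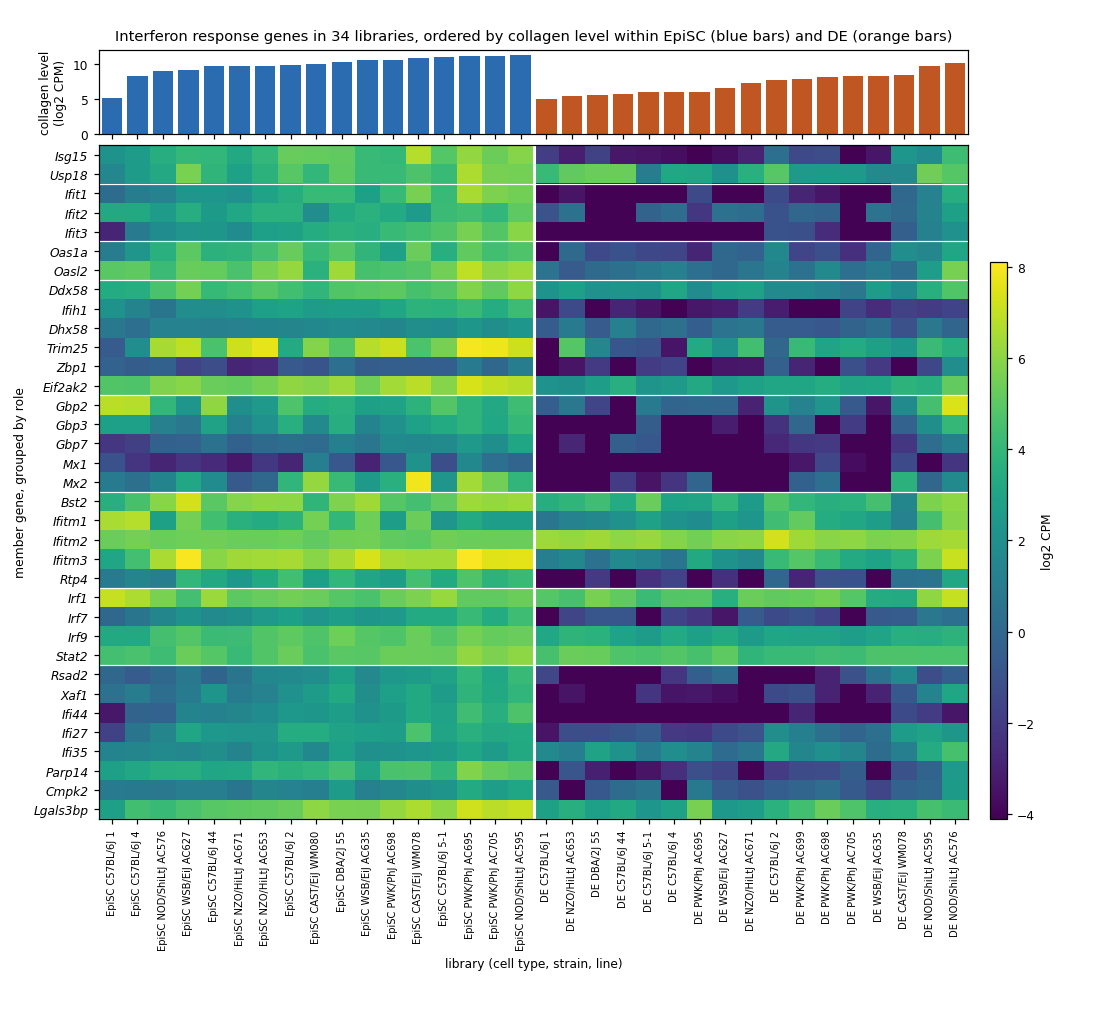
Heat map of log2 CPM (colour) for the 35 members (vertical axis, grouped by role) in 34 libraries (horizontal axis, 17 EpiSC and 17 DE), with bars above for the collagen level in log2 CPM. The median member per EpiSC library runs from 1.57 to 5.12 and per DE library from -1.64 to 3.48, and the DE library with the highest collagen level, NOD/ShiLtJ AC576, is also the highest in the members.

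The first comparison asks how the members differ between endoderm and the stem cells it was made from. Of 35 members, 32 were lower in DE, Ifitm2 alone was higher, and Usp18 and Ifi35 did not pass the test (edgeR's quasi-likelihood test with strain as a term, Benjamini-Hochberg adjusted p under 0.05). Over all 20907 genes tested, 77.2% passed, 39.9% being lower and 37.3% higher in DE. The median log2 fold of the members was -3.66, against -0.06 over all genes. The members were chosen with earlier results of these data known, so their direction is not independent evidence. Col1a1, Col1a2 and Col3a1 fell as well, as did 13 of 15 fibroblast markers, and their part in the fall of the members was not tested beyond the fit with the collagen level given further on.

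The IFIT family was among the members that fell furthest. Ifit1, whose protein binds viral RNA ends and blocks their translation, ran from 0.22 to 6.49 in EpiSC (median 3.51) and from -4.01 to 3.48 in DE (median -4.01). In DE 9 of 17 libraries had 0 counts of Ifit1, and the highest, NOD/ShiLtJ AC576, reached into the EpiSC range. Its log2 fold was -6.98 ± 0.80 (SE), with an adjusted p of 4.38e-09 by edgeR. Ifit3, of the same family, fell by 6.79 ± 0.78 (SE) and Ifit2 by 3.84 ± 0.46 (SE) on the log2 scale. Ifit3 has a near-identical copy, Ifit3b, and Ifit1 a close relative, Ifit1bl1, so their counts are uncertain where reads were split. Oas1a and Oasl2 belong to the family that makes oligoadenylates, the messenger that activates RNase L. They fell by 4.47 ± 0.53 (SE) and 4.53 ± 0.42 (SE), and Oas1a carries the same limit through its copy Oas1g.

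The ISG15 system has a pair of members here. Isg15, a ubiquitin-like protein that is attached to other proteins, ran from 2.15 to 6.74 in EpiSC (median 4.18) and from -4.01 to 4.32 in DE (median -2.87). It was lower in DE in 15 of 16 lines, with NOD/ShiLtJ AC576 the exception, and its log2 fold was -6.18 ± 0.70 (SE). Usp18, the enzyme that removes Isg15 and dampens the type I receptor, ran from 1.57 to 6.61 in EpiSC (median 4.17) and from 1.03 to 5.44 in DE (median 3.16). It was lower in DE in 9 of 16 lines and higher in 7, and its fold of -0.84 ± 0.53 (SE) did not pass (adjusted p = 0.144, edgeR).

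All 6 sensors and their regulators fell, though to different depths. Ifih1, the MDA5 sensor of long double-stranded RNA, ran from 0.65 to 4.24 in EpiSC (median 2.76) and from -4.01 to -1.35 in DE (median -3.13), with 66 counts over all 17 DE libraries. The groups did not overlap, and its log2 fold was -6.28 ± 0.46 (SE). Ddx58, the RIG-I sensor, fell by 2.399 ± 0.24 (SE), from 3.40 to 6.04 in EpiSC to between 0.73 and 4.78 in DE. Dhx58, a regulator of both sensors, fell by 1.57 ± 0.24 (SE). Trim25, a ubiquitin ligase that acts on RIG-I, fell by 4.01 ± 0.43 (SE). Zbp1, which senses Z-form nucleic acid, fell by 1.87 ± 0.53 (SE). Eif2ak2, the kinase PKR that halts translation, fell by 2.91 ± 0.21 (SE) and was lower in DE in 16 of 16 lines.

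The GTPases, which coat virions or the vacuoles of intracellular microbes, fell in 5 of 5 cases. The log2 folds were -5.43 ± 0.63 (SE) for Mx2, -4.90 ± 0.72 (SE) for Gbp3, -4.15 ± 0.54 (SE) for Mx1, -3.66 ± 0.67 (SE) for Gbp7 and -3.19 ± 0.69 (SE) for Gbp2. Mx1 was scarce in both cell types, with 412 counts over all EpiSC libraries and 22 over all DE libraries. Mx2 is listed in GENCODE M21 as a polymorphic pseudogene. The members of the Gbp family and the Mx pair resemble each other in sequence, and how reads with several alignments were counted is not given in the sources used here.

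The membrane proteins were the group of members in which a gene was called higher in DE. Ifitm2, which hinders the entry of viruses through endosomes, ran from 5.01 to 5.57 in EpiSC (median 5.36) and from 5.50 to 7.25 in DE (median 6.04). In 16 of 16 lines the DE library was the higher one, although the ranges touched, and edgeR put the log2 fold at 0.81 ± 0.10 (SE) with an adjusted p of 1.11e-08. In the annotation 40.9% of its exonic bases are shared with Gm45717 on the same strand. Its neighbour Ifitm3, a close relative, went from 3.14 to 8.02 in EpiSC (median 6.48) to 0.48 to 7.09 in DE (median 2.96), a log2 fold of -3.51 ± 0.44 (SE). Ifitm1 fell by 1.49 ± 0.61 (SE, adjusted p = 0.0285, edgeR) and was lower in 10 of 16 lines. It lost its call without the filter on low counts, and in 6 of 34 fits with 1 library left out. Those were the DE libraries of CAST/EiJ WM078, WSB/EiJ AC635 and C57BL/6J lines 44 and 4, and the EpiSC libraries of DBA/2J and C57BL/6J line 4. Bst2, or tetherin, which holds budding virions at the surface, fell by 1.66 ± 0.28 (SE). Rtp4 fell by 5.28 ± 0.68 (SE).

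Per length the order of the members changed with the cell type. The highest EpiSC levels were those of Ifitm3 at 166 ± 107 CPM per kilobase of exon (SD, n = 17), Ifitm2 at 62.1 ± 6.03 and Bst2 at 61.6 ± 40.0. In DE, Ifitm2 stood first with 111 ± 36.1 CPM per kilobase (SD, n = 17), ahead of Ifitm3 with 27.2 ± 48.4 and Bst2 with 22.4 ± 18.7. Ifitm2 and Bst2 did not differ in EpiSC beyond their spread, nor did Ifitm3 and Bst2 in DE.

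The transcription factors fell least as a group. Irf7, the factor that amplifies the type I response, fell by 4.26 ± 0.50 (SE) and was lower in 16 of 16 lines. Irf9, the DNA-binding part of the ISRE complex, fell by 1.58 ± 0.17 (SE). Stat2, its partner, fell by only 0.50 ± 0.17 (SE, adjusted p = 0.00806, edgeR), from a median of 5.00 in EpiSC to 4.64 in DE, with overlapping ranges. Irf1, a factor that responds mainly to type II interferon, fell by 0.60 ± 0.23 (SE, adjusted p = 0.0172, edgeR) and was lower in 11 of 16 lines. Irf1 lost its call without EpiSC of C57BL/6J lines 4 and 1, as did Ifitm1, and without a strain term, as did Gbp2 and Zbp1.

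Of the 8 other effectors 7 fell. Ifi44 fell from 3402 counts over all EpiSC libraries to 17 over all DE libraries, a log2 fold of -7.83 ± 0.66 (SE). Parp14, an enzyme that adds ADP-ribose to proteins, ran from 2.84 to 5.77 in EpiSC (median 3.94) and from -4.01 to 2.50 in DE (median -1.56). These ranges did not overlap, and its log2 fold was -5.97 ± 0.47 (SE). Ifih1 and Parp14 were the 2 members of 35 without overlap between the cell types, against 19% of all genes. Xaf1, a protein that opposes an inhibitor of cell death, fell by 5.21 ± 0.64 (SE), and Rsad2, or viperin, which makes a chain-terminating nucleotide, fell by 4.17 ± 0.67 (SE). The mitochondrial nucleotide kinase Cmpk2 fell by 2.16 ± 0.42 (SE), Ifi27 by 2.57 ± 0.49 (SE) and the secreted Lgals3bp by 2.00 ± 0.24 (SE). Ifi35 did not pass, with a fold of -0.40 ± 0.26 (SE, adjusted p = 0.158, edgeR), and shares 16.8% of its exonic bases with the antisense gene Gm11626.

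Across the 16 lines with both libraries, 8 members were lower in DE in each line, namely Irf7, Oas1a, Rsad2, Ifih1, Trim25, Ifi44, Parp14 and Eif2ak2. Leaving out Ifitm2, 24 members were higher in DE in NOD/ShiLtJ AC576 and at most 5 in any other line. Shares of all genes were not counted line by line. AC576 was also the only one of these lines with a higher collagen level in DE (10.1) than in EpiSC (8.98), and the part of this was not tested. In AC576 Gbp2 was 3.41 higher and Gbp3 2.82 higher in DE than in EpiSC on the log2 scale. With the collagen level as a covariate, 28 of the 33 calls were kept, 4 lost (Bst2, Gbp7, Stat2 and Zbp1) and Ifi27 turned to 0.22 (adjusted p = 0.646, edgeR), while the median of the members moved from -3.66 to -2.36. Since the collagen level itself differs between the cell types, that fit takes away part of the difference in cell type too.

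**Figure D2:**
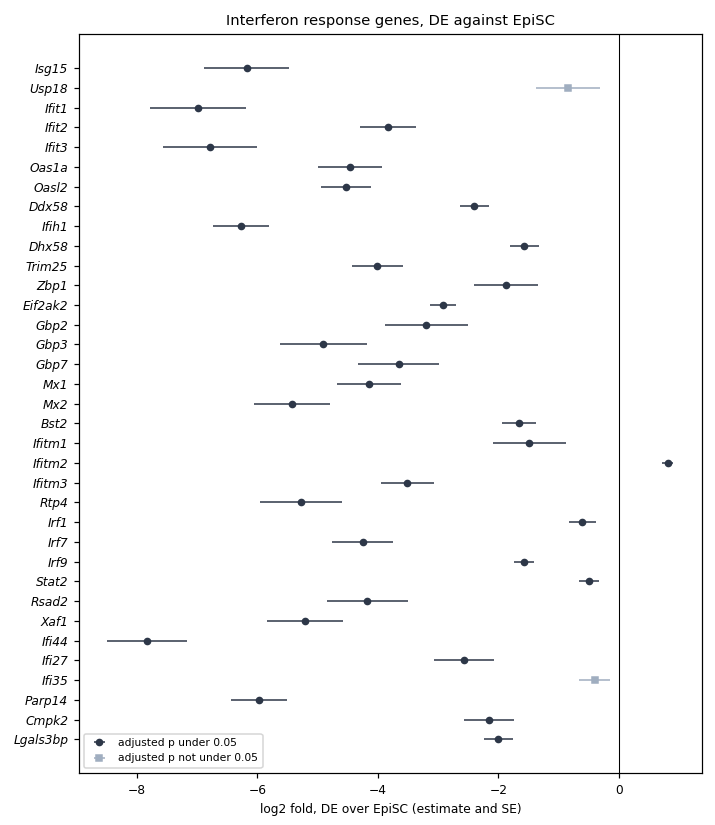
Log2 fold of DE over EpiSC (horizontal axis) for the 35 members (vertical axis, grouped by role), points being estimates and bars 1 SE. The estimates run from -7.83 for Ifi44 to 0.81 for Ifitm2, and the 2 pale squares, Usp18 and Ifi35, did not pass the test.

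Other genes of the pathway were read in the same comparison, in which 37.3% of all genes were higher and 39.9% lower in DE. The 11 genes for interferons themselves had too few counts to be tested, with 33 counts over all EpiSC libraries and 77 over all DE libraries. All 6 receptor chains were higher in DE, led by Il10rb, a chain of the type III receptor, at 2.39 ± 0.21 (SE). Ifnar1 and Ifnar2, the type I receptor, rose by 0.54 ± 0.09 (SE) and 0.79 ± 0.12 (SE). Of 11 signal transducers, 3 were higher and 2 lower in DE. Stat3, which also serves cytokines outside the interferon family, rose by 0.64 ± 0.13 (SE). Of 12 other sensors and adaptors tested, 3 were higher and 5 lower, among them Adar, which edits double-stranded RNA, at -2.63 ± 0.14 (SE). Of 49 further interferon-stimulated genes tested, 46 were lower and 2 higher in DE. That list was compiled with earlier results of these data known, so its direction is not independent evidence.

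The second question is how far the members follow the collagen level from line to line within a cell type. In EpiSC, 16 of 35 members changed with the collagen level in a fit with strain as a term, 15 upward and Irf1 downward, against 11% of all 17868 genes, 6.51% upward and 4.46% downward. Ifit3 rose by 1.47 ± 0.11 (SE) log2 units per log2 unit of collagen and Ifi44 by 1.45 ± 0.18 (SE), both steeper than 1. Gbp7 (1.02 ± 0.13, SE), Ifit1 (0.92 ± 0.18, SE), Ifi27 (0.87 ± 0.14, SE) and Irf7 (0.70 ± 0.12, SE) followed. Isg15 rose by 0.62 ± 0.15 (SE) and Lgals3bp by 0.62 ± 0.08 (SE) per unit. Irf1 moved the other way, at -0.16 ± 0.05 (SE, adjusted p = 0.0408, edgeR). It lost its call in 10 of 17 fits with 1 line left out, namely any line of PWK/PhJ, NZO/HiLtJ or NOD/ShiLtJ and C57BL/6J lines 1, 5-1 and 44. Of the upward members Rsad2 lost its call in 14 of the 17 fits and Ddx58 in 11. On the same scale 14 of 15 fibroblast markers rose, as did 21 of 49 further interferon-stimulated genes. Without C57BL/6J line 5-1 the count fell to 10 of 35, and that over all genes to 919 of 17827.

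Without a strain term the relation was read as a correlation over the 17 EpiSC lines, computed for 35 members with p-values from 100000 permutations, adjusted over all genes tested. By Pearson's r 23 members were positive and Ifitm1 negative past the threshold, against 6.91% of all genes positive and 3.81% negative. By Spearman's rho 21 were positive and 1 negative, against 7.8% and 4.37% of all genes. The closest relation was that of Ifit3, with r = 0.974 and rho = 0.988 (adjusted permutation p = 0.0003715 and 0.0004752). Without the 2 libraries farthest from the median collagen level, C57BL/6J lines 1 and 4, r for Ifit3 was 0.952. Ifi44 gave r = 0.956 and rho = 0.968 (0.914 without the 2), and Lgals3bp r = 0.914 and rho = 0.973 (0.947 without the 2), with the same adjusted permutation p-values. The median r over the 35 members was 0.73, and 0.651 without those 2 libraries.

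Some relations rested on those 2 libraries. Ifitm3 went from r = 0.819 to 0.342, Trim25 from 0.777 to 0.211, Oas1a from 0.730 to 0.111 and Ifitm1 from -0.631 to -0.324. Irf1 and Gbp2 had negative values with all 17 lines (r = -0.598 and -0.539, adjusted permutation p = 0.0878 and 0.134) and slightly positive ones without the 2 (0.0884 and 0.158). In the fit with strain, leaving out both libraries again gave 16 calls, of which 9 were shared with the 16 from all lines.

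In DE fewer members were called. With strain as a term 0 of 32 members tested passed in edgeR, against 0.145% of all genes. Of the fibroblast markers only 2 of 14 tested rose in that fit, so it had little reach for feeder genes as well. At an unadjusted p under 0.05 there were 10, 9 of them upward, and DESeq2 called 3 (Ifi27, Ifitm1 and Ifitm3). Ifi27 came nearest, at 1.35 ± 0.31 (SE) per unit (adjusted p = 0.159, edgeR). Without a strain term 12 of 32 were positively correlated, against 5.21% of all genes positive and 2.55% negative. Ifitm3 gave r = 0.887 and rho = 0.850 (adjusted permutation p = 0.0021 and 0.00405) and r = 0.794 without the 2 farthest libraries. The 2 libraries left out there were those of NOD/ShiLtJ. By Spearman's rho 4 were positive, against 3.69% of all genes positive and 5.25% in either direction, and the median r fell from 0.549 to 0.338 without them. Usp18 (r = -0.061) and Stat2 (r = -0.393) did not follow the collagen level.

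**Figure D3:**
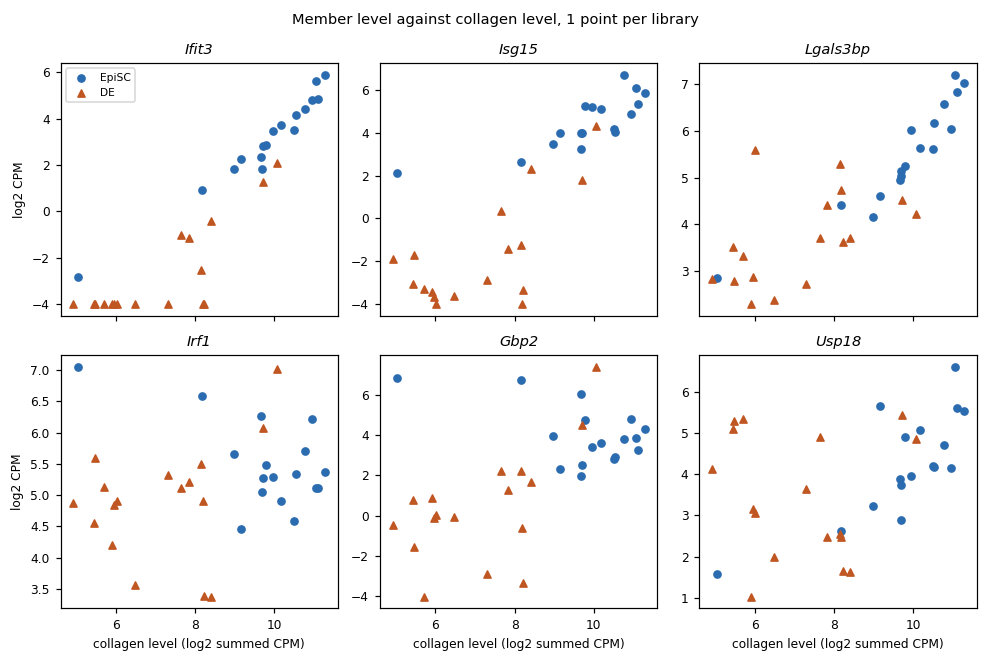
Log2 CPM (vertical axes) of 6 members against the collagen level in log2 summed CPM (horizontal axes), 1 point per library, circles for EpiSC and triangles for DE. Ifit3 in EpiSC rises along a line (r = 0.974), whereas Irf1 and Gbp2 are highest in EpiSC of C57BL/6J line 1, which has the lowest collagen level (5.04).

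C57BL/6J line 1 shows the members in EpiSC at a collagen level close to that of DE, 5.04 against 4.92 in DE of the same line. In that EpiSC library 21 of 35 members were above each of the 5 DE libraries of C57BL/6J, against 35.5% of all genes. Irf1 at 7.05 and Gbp2 at 6.86 were the highest of all 17 EpiSC libraries. Ifitm1 stood at 6.57, Oasl2 at 5.00 and Eif2ak2 at 4.79. Parp14 at 2.84, Gbp3 at 2.78 and Ifih1 at 2.12 were also well above DE, where they lay between -4.01 and -0.52 in C57BL/6J. Other members came close to their DE levels. Ifi44 stood at -3.30, Ifit3 at -2.83, Gbp7 at -2.19 and Ifi27 at -1.75. Usp18 at 1.57 was below the C57BL/6J DE median by 2.56. This is 1 library and carries no test.

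The third question is whether strain changes the members in EpiSC. Over the 5 strains with at least 2 lines in both cell types, 8 of 35 members differed in the strain F test (edgeR), against 40% of all genes. They were Gbp2, Irf1, Zbp1, Parp14, Mx1, Mx2, Eif2ak2 and Trim25. Trim25 lost its call in 12 of 14 fits with 1 line left out. The count was 4 without PWK/PhJ AC695, 14 without C57BL/6J line 5-1 and 13 without either NOD/ShiLtJ line.

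PWK/PhJ, a wild-derived strain, differed from C57BL/6J in 11 of 35 members, 8 higher and 3 lower, against 29.8% of all genes, 13.7% higher and 16.1% lower. Trim25 was at 7.10, 7.79 and 7.95 in PWK/PhJ and at -0.62, 1.88, 3.34, 4.62 and 5.61 in C57BL/6J. The strains did not overlap, and the log2 fold was 3.55 ± 0.86 (SE, adjusted p = 0.00927, edgeR). Parp14 (1.89 ± 0.36), Eif2ak2 (1.54 ± 0.36), Mx1 (2.81 ± 0.71), Mx2 (3.22 ± 0.84), Ddx58 (1.24 ± 0.37), Ifit1 (2.85 ± 0.95) and Ifitm3 (1.78 ± 0.61) were higher too, each as log2 fold ± SE. Gbp2 at 2.92 to 3.84 lay below all C57BL/6J lines at 4.73 to 6.86, with a fold of -2.69 ± 0.51 (SE, adjusted p = 0.00188, edgeR). Irf1 (-1.18 ± 0.26) and Ifitm1 (-2.58 ± 0.86) were lower too, as log2 fold ± SE. Among these members Ifit1, Ifitm1 and Mx2 overlapped between the strains. With 1 line left out, Ifit1 lost its call in 6 of 8 fits, Ifitm1 in 5 and Ifitm3 in 4. The fibroblast markers summed to 2578 to 2891 CPM in PWK/PhJ and to 135.6 to 3315 CPM in C57BL/6J, and with the collagen level in the fit 6 of the 11 calls were kept. Without PWK/PhJ AC695 there were 5 calls, without C57BL/6J line 4 there were 7, and without C57BL/6J line 5-1 there were 17. Over all genes these 3 fits called 3532, 4675 and 6368, against 5330 with all lines.

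CAST/EiJ, also wild-derived, differed in 5 of 35 members, against 31.6% of all genes. Its EpiSC libraries stood apart in endoderm markers, of which 5 of 6 were higher, with sums of 951.9 and 1169 CPM against 31.79 to 330.4 CPM in C57BL/6J. Of 6 EpiSC markers 2 were higher and 2 lower, and the part of this difference in the members was not tested. Mx2 stood at 6.16 and 7.82 in CAST/EiJ and at 0.38 to 3.91 in C57BL/6J, a log2 fold of 4.84 ± 0.91 (SE, adjusted p = 0.00202, edgeR). Mx1 stood at 1.18 and 2.11 against -2.83 to -1.02, a fold of 3.82 ± 0.74 (SE, adjusted p = 0.00167, edgeR). Neither overlapped. Many classical inbred strains, C57BL/6J among them, are known to carry defective alleles of both Mx genes. The part of such alleles in these folds was not tested, nor was that of aligning all strains to the C57BL/6J reference genome. Gbp2 (-2.47 ± 0.60), Irf1 (-0.88 ± 0.30) and Ifitm2 (-0.37 ± 0.09) were lower, as log2 fold ± SE. Without one or the other CAST/EiJ line, WM080 or WM078, 3 or 2 calls were left.

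NZO/HiLtJ and WSB/EiJ differed in 3 members each, against 5.52% and 7.41% of all genes. In NZO/HiLtJ Gbp2 (-3.85 ± 0.66), Irf1 (-1.24 ± 0.31) and Zbp1 (-2.68 ± 0.68) were lower, as log2 fold ± SE. In WSB/EiJ Irf1 (-1.87 ± 0.32) and Gbp2 (-3.51 ± 0.65) were lower and Bst2 (1.87 ± 0.51) higher. Bst2 stood at 6.36 and 7.33 in WSB/EiJ and at 3.53 to 6.04 in C57BL/6J. Gbp2 stood at 1.99 and 2.50 in NZO/HiLtJ and at 2.33 and 2.83 in WSB/EiJ, all below the lowest C57BL/6J line. In NOD/ShiLtJ Ddx58 (1.36 ± 0.41) was higher and Gbp2 (-1.93 ± 0.58) lower, 2 of 35 against 12.9% of all genes. With the collagen level in the fit both NOD/ShiLtJ calls were lost and Trim25 was called instead. These small counts moved with single lines. They ranged from 0 to 4 for NZO/HiLtJ, from 1 to 4 for WSB/EiJ and from 0 to 6 for NOD/ShiLtJ with 1 line left out. The counts fell without either line of the strain itself. Among C57BL/6J lines they fell without line 4 for all 3 strains, line 44 for WSB/EiJ and NOD/ShiLtJ, and line 1 for NOD/ShiLtJ. The highest count of each strain came without C57BL/6J line 5-1. Gbp2 and Irf1 are thus each lower than in C57BL/6J in several contrasts, which share the C57BL/6J lines.

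**Figure D4:**
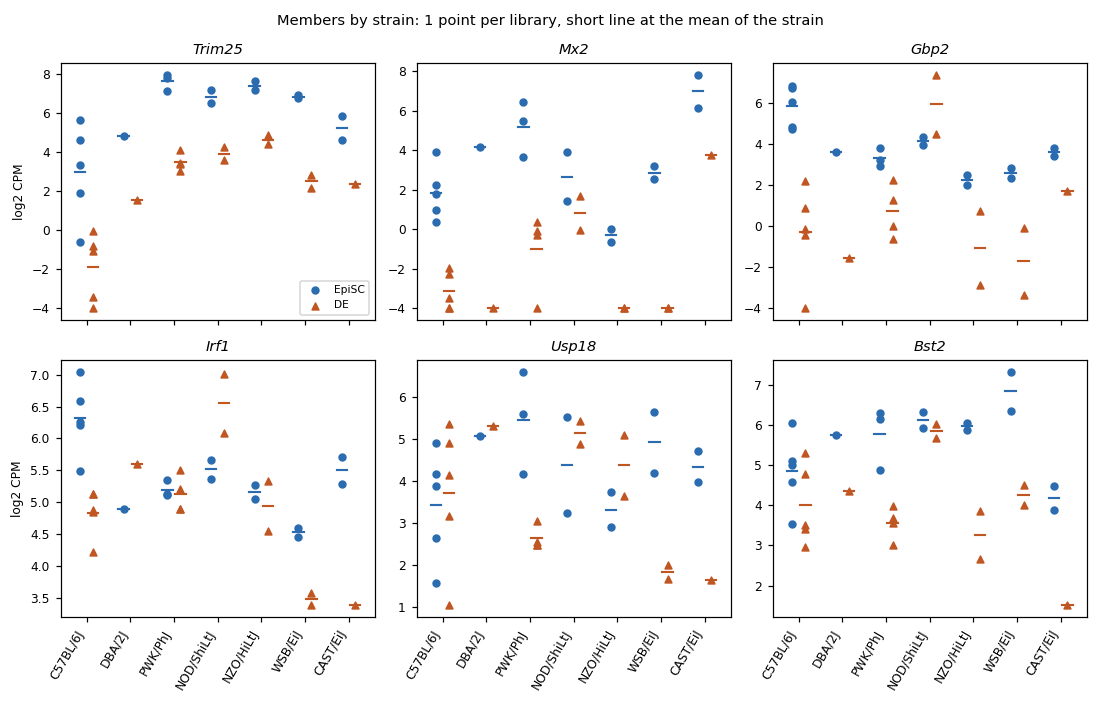
Log2 CPM (vertical axes) of 6 members by strain (horizontal axes), 1 point per library, circles for EpiSC, triangles for DE and short lines at the mean of a strain. Trim25 is lowest in C57BL/6J in DE (-4.01 to -0.06), and Mx2 is highest in EpiSC of CAST/EiJ (6.16 and 7.82).

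The last question is whether strain changes the members in DE, where 32 members could be tested and Ifih1, Mx1 and Ifi44 had too few counts. In the strain F test 20 of 32 differed, against 22.3% of all genes, and 6 did without NOD/ShiLtJ AC576.

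NOD/ShiLtJ was higher than C57BL/6J in 17 of 32 members, against 7.98% of all genes higher and 11.4% different in either direction. At an unadjusted p under 0.05 there were 23, all higher. Isg15 stood at 1.80 and 4.32 in NOD/ShiLtJ and at -3.67, -3.46, -3.31, -1.90 and 0.36 in C57BL/6J, a log2 fold of 5.49 ± 1.33 (SE, adjusted p = 0.0148, edgeR). Ifitm3 stood at 5.69 and 7.09 against 0.64 to 4.14, a fold of 4.21 ± 0.73 (SE). Gbp2 stood at 4.52 and 7.39 against -4.01 to 2.21, a fold of 6.02 ± 1.19 (SE). In each case both NOD/ShiLtJ libraries were above all 5 of C57BL/6J, and AC576 was above AC595. Irf1 stood at 6.08 and 7.02 against 4.21 to 5.13 and differed by 1.79 ± 0.29 (SE). The other members with the smallest p were Trim25 (5.51 ± 0.77), Oasl2 (3.97 ± 0.61), Ddx58 (2.00 ± 0.40), Xaf1 (5.89 ± 1.26), Ifit1 (7.14 ± 1.52), Parp14 (5.56 ± 1.29) and Ifi35 (1.99 ± 0.47), as log2 fold ± SE. Gbp3 (5.89 ± 1.52), Mx2 (4.71 ± 1.26) and Rtp4 (4.45 ± 1.35) followed with larger p. Bst2 differed by 1.61 ± 0.50 (SE, adjusted p = 0.0489, edgeR). With 1 line left out, Rtp4 and Lgals3bp lost their calls in 6 of 7 fits each and Bst2 in 5, and RLE scaling ended those of Rtp4 and Bst2. Ifit1 rests on 7 counts over the 5 C57BL/6J libraries and 373 over the 2 of NOD/ShiLtJ. In DE Ifit1 reached the minimum of the count filter only in AC595 (71 counts), AC576 (302) and the CAST/EiJ library (23). The filter thus admitted Ifit1 through the strain in which it is high, so its selection for testing was not independent of its fold. Its call was kept without the count filter and lost with DESeq2.

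Not every member took part. Ifitm2 (-0.01 ± 0.30), Stat2 (0.05 ± 0.30) and Dhx58 (0.11 ± 0.58) lay near 0, and Usp18 (0.89 ± 0.68) and Irf9 (0.58 ± 0.32) did not pass either, as log2 fold ± SE. Ifitm1 missed the threshold at 2.51 ± 0.78 (SE, adjusted p = 0.0515, edgeR). Elsewhere in the pathway 5 of 11 signal transducers were higher in NOD/ShiLtJ, with Socs1 at 3.34 ± 0.57 (SE) and Socs3 at 2.76 ± 0.39 (SE), both feedback inhibitors of cytokine signalling. Of 6 receptor chains Ifngr1 came nearest the threshold at 0.59 ± 0.18 (SE, adjusted p = 0.0505, edgeR), and 11 of 33 further interferon-stimulated genes were higher, led by Irgm1 at 4.58 ± 0.80 (SE).

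Markers of other cells moved with these members. The fibroblast list summed to 753.2 and 1018 CPM in the NOD/ShiLtJ DE libraries and to 152.5 to 231.2 CPM in those of C57BL/6J, and 12 of 14 of its genes tested were higher. The list of 10 macrophage and blood markers summed to 8.67 and 16.2 CPM, against 2.60 to 3.20 CPM. Only 2 of these 10 had enough counts to be tested, and 1 of them, Cd68, was called higher. Of 6 endoderm markers 5 were lower. With the collagen level in the fit 0 of the 17 calls were left in edgeR, and Rtp4 turned to -0.94 (adjusted p = 0.908). Over all genes tested 22 passed, against 2191 without it, and the median log2 fold of the members went from 2.74 to 1.28. The collagen levels of the 2 NOD/ShiLtJ libraries (9.71 and 10.1) lay above all 5 of C57BL/6J (4.92 to 7.65). That fit therefore separates strain from collagen level poorly. Without AC576 1 call was left, and without AC595 13 of the 17 were kept, with Ifit1 not tested in either case. The part of these other cells in the difference was not tested further.

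**Figure D5:**
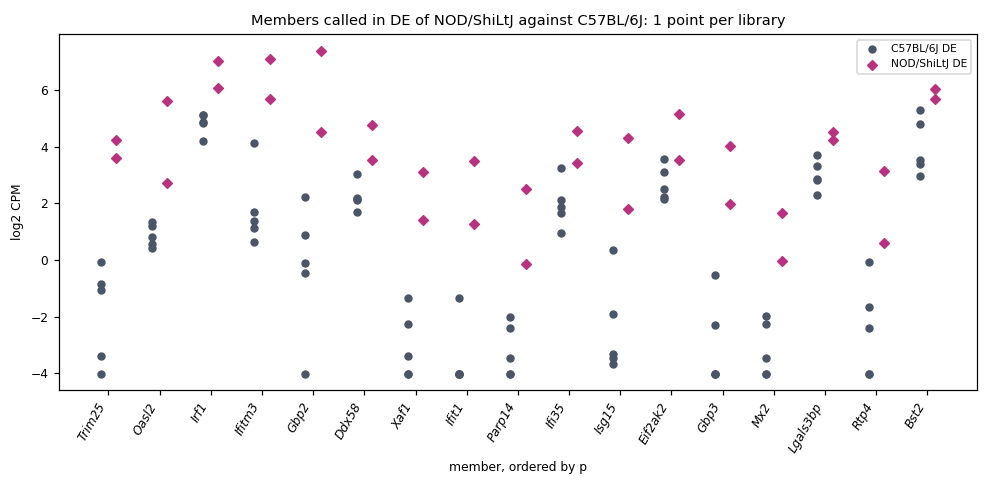
Log2 CPM (vertical axis) in DE of the 17 members called between NOD/ShiLtJ and C57BL/6J (horizontal axis, ordered by p), 1 point per library, 2 of NOD/ShiLtJ and 5 of C57BL/6J. Both NOD/ShiLtJ points lie above the C57BL/6J points for Trim25, Oasl2 and Irf1, and for Eif2ak2 the lower of the pair lies within them.

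The other strains differed in few members in DE. PWK/PhJ differed in 2 of 32 (17.1% of all genes), NZO/HiLtJ in 1 (1.41%) and WSB/EiJ in 2 (2.28%). Trim25 was called in each of these contrasts, which share the C57BL/6J libraries. In DE it stood at -4.01, -3.40, -1.05, -0.84 and -0.06 in C57BL/6J, with 63 counts in all. It stood at 3.01 to 4.10 in PWK/PhJ, at 3.60 and 4.23 in NOD/ShiLtJ, at 4.39 and 4.88 in NZO/HiLtJ, at 2.14 and 2.84 in WSB/EiJ, at 2.38 in CAST/EiJ and at 1.53 in DBA/2J. No library of another strain overlapped with C57BL/6J. The log2 folds were 5.09 ± 0.72 (SE, adjusted p = 0.000186) for PWK/PhJ, 6.25 ± 0.79 (SE, adjusted p = 0.000639) for NZO/HiLtJ and 4.09 ± 0.76 (SE, adjusted p = 0.00858) for WSB/EiJ, by edgeR. With the collagen level in the fit they were 4.71 (adjusted p = 0.000712), 6.31 (0.000617) and 3.71 (0.0261), and that for NOD/ShiLtJ was 4.36 (0.235). Trim25 spans chromosome 11 from 88999376 to 89020293 in GENCODE M21 (GRCm38). Reads of all strains were aligned to the C57BL/6J reference genome, and its part in this difference was not tested.

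Lgals3bp was the other member called in PWK/PhJ DE. It stood at 4.42, 4.74, 5.29 and 5.58 in PWK/PhJ and at 2.30 to 3.71 in C57BL/6J, a log2 fold of 2.03 ± 0.34 (SE, adjusted p = 0.000717, edgeR). The fibroblast markers summed to 240.2 to 466.7 CPM in PWK/PhJ DE, and 5 of 14 were higher. Irf1 was lower in WSB/EiJ DE, at 3.39 and 3.57 against 4.21 to 5.13, with a fold of -1.37 ± 0.33 (SE, adjusted p = 0.0446, edgeR). That call was lost in 6 of 7 fits with 1 line left out, all but the one without C57BL/6J line 5-1. Between 0 and 4 members were called for WSB/EiJ with 1 line left out, whichever of its own lines or of those of C57BL/6J it was.

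Whether a strain effect differs between the cell types was tested as an interaction over all 34 libraries. In the joint F test 6 of 35 members passed, against 10.7% of all genes, namely Irf1, Ddx58, Gbp2, Usp18, Oasl2 and Ifitm1. With the cell line as a block 2 passed, Irf1 (adjusted p = 0.0153, edgeR) and Trim25. The joint count was 11 without DE of C57BL/6J line 2, and 3 without DE of AC576, EpiSC of AC576 or EpiSC of PWK/PhJ AC695. For NOD/ShiLtJ 7 members passed, against 6.96% (4.54% higher), all with a higher log2 fold in DE than in EpiSC. Irf1 was -0.86 ± 0.30 (SE) from C57BL/6J in EpiSC and 1.79 ± 0.29 (SE) in DE, a difference of 2.65 ± 0.44 (SE, adjusted p = 0.000872, edgeR). Gbp2 was at -1.93 ± 0.58 (SE) in EpiSC and at 6.02 ± 1.19 (SE) in DE, a difference of 7.92 ± 1.63 (SE, adjusted p = 0.00521, edgeR). With the block 3 passed for NOD/ShiLtJ (Irf1, Gbp2 and Trim25). For NOD/ShiLtJ the count was 1 without AC576 in either cell type and 12 without C57BL/6J line 2 in DE.

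For PWK/PhJ 3 members passed, against 6.67%. Ddx58 was 1.24 ± 0.37 (SE) higher in EpiSC and -0.91 ± 0.35 (SE) in DE, a difference of -2.13 ± 0.50 (SE, adjusted p = 0.00963, edgeR). Irf1 was at -1.18 ± 0.26 (SE) in EpiSC and 0.29 ± 0.25 (SE) in DE, a difference of 1.50 ± 0.36 (SE, adjusted p = 0.0118, edgeR). Usp18 differed by -3.60 ± 1.01 (SE, adjusted p = 0.0328, edgeR), from 1.97 ± 0.75 in EpiSC to -1.65 ± 0.60 in DE, and with the cell line as a block by -3.23 (adjusted p = 0.107). The count rose to 5 without C57BL/6J line 2 in DE or line 5-1 in EpiSC, where 1963 and 1337 of all genes passed, against 1394 with all libraries. For NZO/HiLtJ and WSB/EiJ 0 members passed in edgeR, against 0.407% and 0.871% of all genes, with 4 and 5 at an unadjusted p under 0.05 and 0 by DESeq2.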

How the data were processed

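The authors deposited RNA-seq read counts per gene, which are whole numbers and unscaled. The aligner STAR 2.4, the build mm10 and the counter HTSeq 0.6.1 are named per the submitters' processing notes, as is DESeq2 without a version. The sources used here give no annotation release or strand setting and do not state how reads with several alignments were treated. Positions and exon lengths come from GENCODE M21. Values of 1 pathway gene are not reported here.

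The test was edgeR 4.0.16 under R 4.3.3 (TMM, robust quasi-likelihood, Benjamini-Hochberg threshold 0.05), run on each gene that reached 10 counts in 3 or more libraries of the fit, with p-values adjusted over all genes. DE against EpiSC and the interactions used all 34 libraries. Strain contrasts and collagen slopes used the 17 of a cell type. The scripts were tested on simulated data. The pairing comes from the 16 cell lines with both libraries. Deviations of the same line correlated with r from 0.00139 to 0.147 (median 0.0357, 14 lines). Libraries of a group differed by at least 6.02 in chi-square per degree of freedom, so none was a duplicate. Alternatives were RLE scaling, no count filter, DESeq2 1.42.0, the collagen level as a covariate, no strain term, 8 collagen genes, the cell line as a block, and each library left out. Added after seeing the data were fits without both NOD/ShiLtJ DE libraries and without EpiSC of C57BL/6J lines 4 and 1. The members and lists were chosen with earlier results of these data known. All 35 members may be named. Those called are given with their log2 folds in DE against EpiSC and in each strain contrast, except Lgals3bp and Eif2ak2 in NOD/ShiLtJ DE. Listed pathway genes are the largest log2 folds at a mean log2 CPM of at least 1. Amplified reads carried no molecular identifiers, so limits cover counting error only.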

Additional observations from a re-analysis of the deposited data

Results flagged for a closer look

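In groups of 4 to 10 libraries, 4 of 75 member levels in log2 CPM had 1 library far from the others, and chance alone gives about 1 in 20. Cmpk2, a nucleotide kinase, had 0 counts in DE of C57BL/6J line 4 (-4.01, the other lines -0.69 to 0.58). In PWK/PhJ DE, Oasl2 stood at 1.70 in AC698 (the others 0.37 to 0.48) and Usp18 at 3.05 in AC695 (the others 2.47 to 2.55). Mx2 had 0 counts in PWK/PhJ DE of AC705 (-4.01, the others -0.31 to 0.35).

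The strain effect differed between DE and EpiSC, by the edgeR interaction term, for 3 members in PWK/PhJ and 7 in NOD/ShiLtJ. In PWK/PhJ the differences in log2 fold (DE minus EpiSC) were -2.13 for Ddx58, 1.50 for Irf1 and -3.60 for Usp18. In NOD/ShiLtJ they were 2.65 for Irf1, 7.92 for Gbp2, 4.53 for Parp14, 3.77 for Oasl2, 5.26 for Ifitm1, 5.68 for Gbp3 and 4.71 for Xaf1. With 1 library left out, Usp18 lost its call in 7 of 17 fits for PWK/PhJ, and Xaf1 in 8 and Gbp3 in 7 of 14 fits for NOD/ShiLtJ. For NOD/ShiLtJ, Ifitm1 lost its call in 3 of the 14 and Gbp2, Oasl2 and Parp14 in 2 each, always including both fits without AC576. Irf1 kept its NOD/ShiLtJ call in all 14. With the cell line as a block, Gbp3, Ifitm1, Oasl2, Parp14 and Xaf1 lost theirs.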

How the results depend on the processing

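Counts of members called are given here against the values reported above. Without the count filter they were 7 for PWK/PhJ and 0 for NOD/ShiLtJ in EpiSC, 7 for PWK/PhJ, 3 for NZO/HiLtJ and 6 for WSB/EiJ in DE, and 27 in the joint interaction test, and the terms for PWK/PhJ, NOD/ShiLtJ, NZO/HiLtJ and WSB/EiJ gave 13, 17, 7 and 9. With DESeq2 they were 17 for PWK/PhJ, 5 for NOD/ShiLtJ and 18 in the F test in EpiSC, 24 and 3 for the collagen slope in EpiSC and DE, 6 for PWK/PhJ and 4 for WSB/EiJ in DE, 10 in the joint interaction test and 5 for its PWK/PhJ term. With the collagen level as a covariate they were 6 for PWK/PhJ, 1 for NOD/ShiLtJ (Trim25, with Ddx58 and Gbp2 lost) and 5 for WSB/EiJ in EpiSC, and 0 for NOD/ShiLtJ and 7 in the F test in DE, and Ifi27 (0.22) and Rtp4 (-0.94) changed sign. Without a strain term the slope gave 26 in EpiSC and 15 in DE. Without EpiSC of C57BL/6J lines 4 and 1, PWK/PhJ gave 7 and NOD/ShiLtJ 0. Calls over all genes shifted as well. With DESeq2 they went from 7152 to 8934 of 17868 in the EpiSC F test and from 5330 to 5883 for PWK/PhJ in EpiSC. With the collagen level they went from 4294 to 2880 of 19290 in the DE F test. Without a strain term the EpiSC slope called 1874 genes against 1960. The member counts alone do not separate the members from such shifts, and the cause of these shifts was not tested. RLE scaling moved no count of members past 1.5 times.

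With the cell line as a replicate block, 33 members were called between DE and EpiSC as before, 2 in the joint interaction test, 2 for PWK/PhJ and 3 for NOD/ShiLtJ. It changed no other call of DE against EpiSC.

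With 1 library left out, counts ran from 5 to 17 for PWK/PhJ, 0 to 6 for NOD/ShiLtJ, 0 to 4 for NZO/HiLtJ, 1 to 4 for WSB/EiJ, 2 to 6 for CAST/EiJ, 4 to 14 for the F test and 10 to 18 for the slope in EpiSC. In DE they ran from 2 to 3 for PWK/PhJ, 1 to 21 for NOD/ShiLtJ, 1 to 1 for NZO/HiLtJ, 0 to 4 for WSB/EiJ, 6 to 22 for the F test and 0 to 0 for the slope. DE against EpiSC gave 32 to 34. Calls over all genes moved too in EpiSC, from 3457 to 6368 for PWK/PhJ, 5248 to 8219 for the F test and 919 to 2410 for the slope. The joint interaction test gave 3 to 11, with 2 to 5 for PWK/PhJ, 1 to 12 for NOD/ShiLtJ and 0 for both other terms. Groups of 2 lines are left with 1, which is taken to vary like the other groups. Few counts limit the DE values of Mx1 (22) and Ifi44 (17), although libraries were not shallower in DE (median 28.0 M counts) than in EpiSC (27.7 M).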

Other observations

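The members also moved together from line to line. In EpiSC the median correlation between pairs of members was 0.61 over 595 pairs and 17 lines, with 472 pairs positive, and 0.415 after a line on the collagen level was taken out. In DE it was 0.424 over 496 pairs, with 433 positive, and 0.267 after the line was taken out. Libraries share depth, strain and scaling across members. Pairs of other genes were not computed beside them, so these values are a description and set no trait of the members apart. In EpiSC, Ifit1 (r = 0.969) and Irf7 (r = 0.961) were closest to the mean of the other members. Ifitm1 (-0.538), Irf1 (-0.498), Gbp2 (-0.382) and Ifitm2 (-0.302) ran against it. In DE, Xaf1 (0.965), Ifit3 (0.957) and Ifit1 (0.938) were closest, while Dhx58 (-0.150), Stat2 (-0.114), Rsad2 (0.2195) and Usp18 (0.221) were far from it.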
